A study of Homo sapiens with 48 samples.

Results

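Dexamethasone and prednisolone are synthetic glucocorticoids, and their effects on gene expression were compared directly in THP-1, a human line of acute monocytic leukemia cells. The comparison took the 3 dexamethasone libraries against the 3 prednisolone libraries, 6 of the 48 libraries in the series, and rows of the count files with the same gene symbol were summed. Cells at passages 11 to 15 received either steroid at its own CV90, by its usual meaning the concentration at which 90% of cells stay viable, and were collected after 12 h. The sources used here do not give the concentrations, which may differ between the steroids. Control cells received the solvent dimethyl sulfoxide (DMSO) in 2 vehicle series of 3 libraries each, Veh-1 and Veh-2, or nothing in 2 untreated series of 3. The treatment protocol puts the vehicle at 0.1% DMSO, while the titles of the 6 vehicle libraries run from 0.1 to 0.6%. The labels do not tie a control series to a steroid, and nothing in them says that libraries of a group are separate cultures, so p-values measure the spread between libraries, which may be technical.

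Glucocorticoids enter the cell and bind the glucocorticoid receptor, a nuclear receptor held by heat shock chaperones in the cytosol. The bound receptor moves to the nucleus, where it activates genes through palindromic response elements and restrains inflammatory transcription factors such as NF-κB. Dexamethasone carries a fluorine and a methyl group that prednisolone lacks, and it is the more potent agonist of the receptor. In monocytes and macrophages, glucocorticoids are known to raise TSC22D3, FKBP5, PER1 and CD163 and to lower cytokine production.

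Total counts of the 6 libraries were 7.62 M to 10.7 M (M, 1000000 counts). Dexamethasone-3 stood apart from its group. Its log2 levels differed from the mean of the other dexamethasone libraries by a root mean square of 0.901, against 0.596 and 0.602 for Dexamethasone-1 and Dexamethasone-2 and 0.455 to 0.494 for the prednisolone libraries. At equal depth, 15256 symbols had counts in Dexamethasone-3, against 16336 and 16374 in the other dexamethasone libraries and 16169 to 16363 with prednisolone. The median standard deviation (SD) of log2 levels within the dexamethasone group was 0.314, above the 0.129 to 0.231 of the other 15 groups. All 14 monocyte markers reached 1 CPM (counts per 1000000) in every group described here. Their summed level was 1556 to 1672 CPM with dexamethasone and 1696 to 1786 CPM with prednisolone. The summed T cell, epithelial, fibroblast and erythroid markers were each at most 6.65 CPM in any of the 6 libraries. The B cell list summed to 17.2 to 24.0 CPM with dexamethasone, 18.3 to 20.5 CPM with prednisolone and 15.2 to 23.0 CPM in vehicle, with MS4A1, BLK and CR2 at 0. The NK cell list summed to 8.01 to 13.6 CPM, 7.75 to 8.81 CPM and 1.47 to 4.68 CPM in the same order, with NCR1 and GZMB at 0, and its part in the results was not tested. The endothelial list, nearly all of it PECAM1, which monocytes also express, summed to 181 to 254 CPM with dexamethasone and 177 to 178 CPM with prednisolone. In such bulk libraries, fewer cells of a type and less RNA per cell cannot be told apart.

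Dexamethasone and prednisolone differed in 1444 of 15642 genes tested (9.23%), with 857 genes (5.48%) higher and 587 (3.75%) lower with dexamethasone. Called, higher and lower refer to genes at an adjusted p under 0.05 in edgeR's quasi-likelihood test over all 48 libraries, and every adjusted p below is from this test unless another is named. Scaling by total counts alone in place of edgeR's TMM factors turned the split, with 600 genes higher and 817 lower among 1417 called. Differences are log2 values of dexamethasone minus prednisolone with their standard error (SE). The test pools the spread over all groups, while the dexamethasone libraries spread most, so SE and p-values may be too small here. A difference is said to hold where it is called again with the same sign without Dexamethasone-3. Of the 1444 called genes, 450 (2.88% of genes tested) held, 267 higher (1.71%) and 183 lower (1.17%). The other 994 kept their sign without reaching the threshold, and the median size of their difference was 0.48 with Dexamethasone-3 and 0.32 without it. In 1182 of the called genes, Dexamethasone-3 lay further from prednisolone than the mean of Dexamethasone-1 and Dexamethasone-2.

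**Figure D1:**
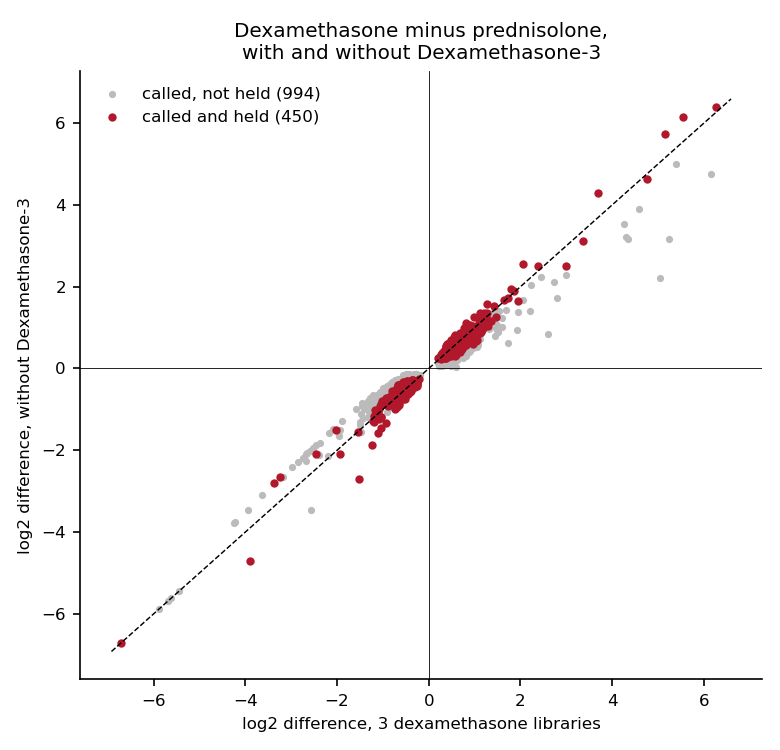
Log2 difference of dexamethasone minus prednisolone for the 1444 called genes, from all 3 dexamethasone libraries (horizontal axis) and without Dexamethasone-3 (vertical axis), with the line of equality dashed. The 450 genes that held lie near the line, and most of the other 994 lie closer to 0 without Dexamethasone-3.

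The number of calls rested on single libraries. Without Dexamethasone-3 the same test called 638 of 16074 genes (3.97%), without Dexamethasone-2 it called 2346, without Prednisolone-1 733 and without Prednisolone-3 685. When limma was given a separate variance for each group, 163 genes (1.04%) were called, and 139 of them were among those that held. The 6 libraries fitted alone gave 6 calls among 13670 genes (0.0439%), EGR1, HIST1H1C, RBMS3, TBC1D30, TNF and USP53, with 1639 genes at an unadjusted p under 0.05. The 5 libraries without Dexamethasone-3 fitted alone gave 1112 calls among 13912 genes (7.99%), 603 higher and 509 lower. Of the 450 genes that held, 421 were among them with the same sign. The same 5 libraries decided which genes held, so this overlap is no independent support. Group variances without Dexamethasone-3 gave 1006 calls (6.26%). Of the 14198 genes not called over the 48 libraries, 9935 had a 95% interval of the difference within 2-fold in both directions.

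The control series differed from each other as well. Veh-2 and Veh-1 differed in 2983 genes (19.1%). A glucocorticoid difference is said to follow the control series where Veh-2 minus Veh-1 is also called with the same sign, and to run against it where that is called with the opposite sign. Of the 450 genes that held, 176 (39.1%) followed the control series, 22 ran against it and 252 showed no called series difference. Among genes not called between the steroids, 11.4% had a called series difference of the same sign and 6.001% one of the opposite sign. On the line from Veh-1 (at 0) to Veh-2 (at 1), drawn over 1807 genes that differed between the untreated series and not between the steroids, Dexamethasone-1 to Dexamethasone-3 lay at 0.137, 0.169 and 0.093. The prednisolone libraries lay at 0.00, 0.045 and 0.048. All 6 libraries lay near series 1, and every dexamethasone library lay closer to series 2 than every prednisolone library. The means were 0.133 with dexamethasone and 0.031 with prednisolone. Genes called between the steroids were left out of this line. How much of the difference of a gene that follows the control series goes with this shift was not tested.

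**Figure D2:**
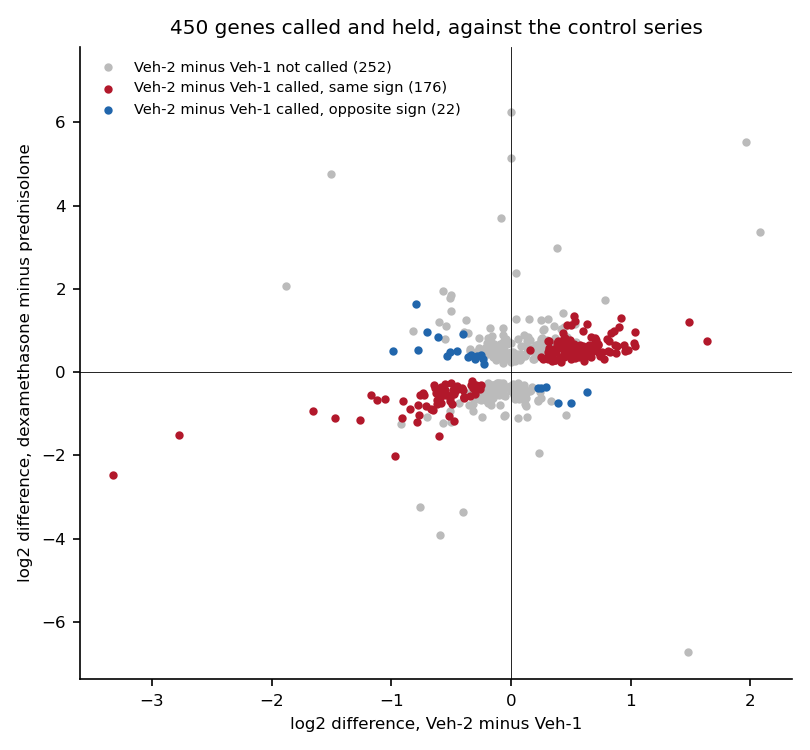
Log2 difference of dexamethasone minus prednisolone (vertical axis) against Veh-2 minus Veh-1 (horizontal axis) for the 450 genes called and held. The 176 genes in red have a called series difference of the same sign, the 22 in blue one of the opposite sign, and the 252 in grey none.

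Of 30 classical glucocorticoid receptor targets tested, 10 were higher with dexamethasone than with prednisolone, 1 was lower and 19 were not called, and 9 of the 11 called held. That is 36.7% called, against 9.23% of all genes. Both steroids also stood above vehicle in many of them. Dexamethasone was called above both vehicle series in 20 of the 30 (6.53% of all genes tested) and prednisolone in 17 (1.67%), and neither was called below both in any (5.33% and 0.933% of all genes). These comparisons share the vehicle libraries, and those of dexamethasone include Dexamethasone-3. The median difference over the list was 0.25, against 0.00 over all genes tested. TSC22D3, the glucocorticoid-induced leucine zipper that mediates part of the anti-inflammatory response, stood at 649, 678 and 541 CPM in Dexamethasone-1 to Dexamethasone-3 and at 303, 308 and 359.9 CPM in Prednisolone-1 to Prednisolone-3. The groups did not overlap, and all 6 libraries lay above the vehicle libraries, which ranged from 20.6 to 35.5 CPM. Its difference was 0.94 (SE 0.12, adjusted p = 6.01e-07), and it held (1.03 without Dexamethasone-3) with no called series difference.

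FKBP5 encodes a co-chaperone of the receptor that lowers its affinity for hormone. It stood at 1269, 1316 and 759.6 CPM with dexamethasone and at 754, 752 and 771 CPM with prednisolone, against 66.8 to 82.4 CPM in the vehicle libraries. Dexamethasone-3 lay inside the prednisolone range while the other dexamethasone libraries lay well above it. The difference was 0.55 (SE 0.11, adjusted p = 0.000823) with Dexamethasone-3 and 0.77 (adjusted p = 1.79e-08) without it, with no called series difference. PDK4, the kinase that switches off pyruvate dehydrogenase, stood at 11.7, 10.1 and 8.65 CPM with dexamethasone and 5.78, 4.26 and 4.09 CPM with prednisolone. The groups did not overlap, and prednisolone reached into the vehicle range of 2.11 to 4.15 CPM. Its difference of 1.10 (SE 0.30, adjusted p = 0.0166) held, with no called series difference.

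The promoter windows of FKBP5 and PDK4 are shown because they are the only ones among 9 called-higher targets with a RefSeq window that hold the hexamer of which the response element has a pair, AGAACA or its reverse complement TGTTCT (capitals). Both are read 5′ to 3′ on the minus strand in RefSeq's GRCh38.p14, 250 bases before to 50 after an annotated start, at chr6:35728534-35728833 and chr7:95596467-95596766.
FKBP5: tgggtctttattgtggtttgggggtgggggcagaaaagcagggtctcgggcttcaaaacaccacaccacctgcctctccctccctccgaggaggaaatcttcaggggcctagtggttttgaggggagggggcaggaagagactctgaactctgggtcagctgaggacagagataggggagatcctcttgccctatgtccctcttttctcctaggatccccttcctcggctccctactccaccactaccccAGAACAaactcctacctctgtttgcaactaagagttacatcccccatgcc
PDK4: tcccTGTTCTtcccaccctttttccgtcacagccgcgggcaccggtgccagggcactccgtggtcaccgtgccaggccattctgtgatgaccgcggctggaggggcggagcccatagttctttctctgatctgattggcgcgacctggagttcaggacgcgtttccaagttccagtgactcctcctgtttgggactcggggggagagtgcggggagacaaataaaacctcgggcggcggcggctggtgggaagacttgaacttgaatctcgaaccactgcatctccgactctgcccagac
This hexamer occurred in 17.5% of 27305 genes with a window and in 13.5% of the 11134 tested genes with one. It was found in 24 of 196 held-higher genes with a window (12.2%) and in 12 of 131 held-lower genes (9.16%). The exact full element, the hexamer followed after 3 bases of any kind by its reverse complement, was in the window of 1 gene in all and of none of the genes tested. Its hexamers read the same on both strands. Inexact forms and sites outside the windows were not searched, so its absence here does not show that a gene lacks a response element.

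ZBTB16, a zinc finger transcription factor induced by glucocorticoids in many tissues, showed the largest difference among the called targets. It stood at 21.3, 22.8 and 37.1 CPM with dexamethasone and 7.07, 6.65 and 7.20 CPM with prednisolone, and at 0.117 to 0.510 CPM in the vehicle libraries. Every dexamethasone library exceeded every prednisolone library, and Dexamethasone-3 was the highest. The difference was 1.95 (SE 0.39, adjusted p = 0.000833) and held at 1.65 (adjusted p = 0.0276), with no called series difference. DDIT4, an inhibitor of mTORC1 signalling, stood at 74.3, 78.3 and 51.5 CPM with dexamethasone and 25.8, 31.5 and 34.0 CPM with prednisolone. Even the lowest dexamethasone library exceeded prednisolone, and the difference of 1.16 (SE 0.18, adjusted p = 1.97e-05) held but followed the control series, whose own difference was 0.64.

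Another 3 targets were higher and held with no called series difference. RGS2, a brake on G protein signalling, stood at 24.9, 39.7 and 19.7 CPM with dexamethasone and 14.4, 20.7 and 14.5 CPM with prednisolone. Its groups overlapped, since Dexamethasone-3 fell below Prednisolone-2, and its difference was 0.78 (SE 0.20, adjusted p = 0.0104). CXCR4, the receptor for the chemokine CXCL12, differed by 0.75 (SE 0.12) and NFKBIA, the inhibitor that keeps NF-κB in the cytosol, by 0.28 (SE 0.09), both without overlap. KLF9, a transcription factor, was higher by 0.48 without holding (0.28, adjusted p = 0.196 without Dexamethasone-3) and ran against the control series. ADORA3, the adenosine A3 receptor, stood at 52.7, 70.4 and 52.7 CPM with dexamethasone, 35.5, 33.1 and 27.8 CPM with prednisolone and 0.755 to 2.67 CPM in vehicle. Its groups did not overlap. Its difference was 0.87 with Dexamethasone-3 (adjusted p = 0.0476) and no smaller without it, at 0.94 (adjusted p = 0.0666), and the 5 libraries fitted alone called it (adjusted p = 3.53e-05). THBD, the anticoagulant receptor thrombomodulin, was the target that was lower with dexamethasone, at -0.44 (SE 0.09), which held and followed the control series.

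Other well-known targets were not called between the steroids. PER1, a component of the circadian clock, stood at 68.8, 71.3 and 77.0 CPM with dexamethasone and 65.3, 67.3 and 55.4 CPM with prednisolone, far above the 4.03 to 7.14 CPM of vehicle. Every dexamethasone value exceeded every prednisolone value, yet the difference of 0.21 had a 95% interval of -0.19 to 0.61 (adjusted p = 0.55). CD163, the haemoglobin scavenger receptor, stood at 3.59, 4.72 and 2.62 CPM and 2.29, 2.29 and 4.18 CPM, with overlapping groups. CYP19A1, the aromatase that makes oestrogens, was at 26.6, 23.4 and 18.6 CPM with dexamethasone and 30.5, 31.3 and 34.0 CPM with prednisolone against 0.0923 to 0.622 CPM in vehicle. Its difference of -0.48 (95% interval -1.19 to 0.23, adjusted p = 0.411) was not called although the groups did not overlap. TXNIP, a thioredoxin-binding regulator of glucose uptake, and GLUL, glutamine synthetase, differed by 0.02 and 0.19, and neither was called.

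**Figure D3:**
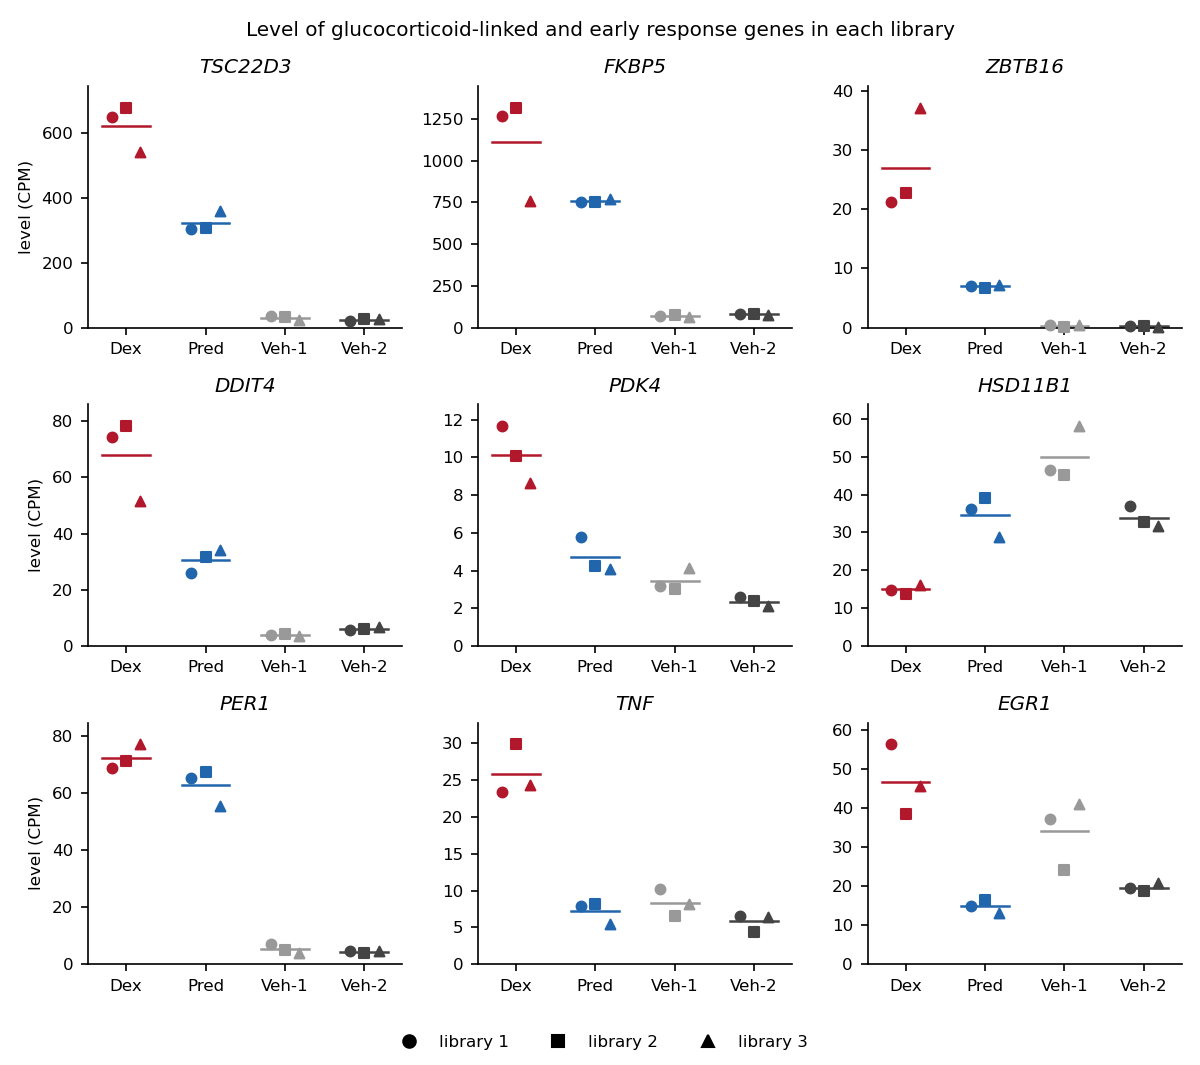
Level in CPM (linear axis from 0) of 9 genes in each dexamethasone, prednisolone, Veh-1 and Veh-2 library, with group means as lines and symbols for library 1, 2 and 3. TSC22D3, ZBTB16, DDIT4, PDK4, TNF and EGR1 are higher in every dexamethasone than in every prednisolone library, HSD11B1 is lower, PER1 is close, and FKBP5 in Dexamethasone-3 is at the prednisolone level.

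Among genes of the receptor itself and of steroid handling, 2 of 20 were higher, 2 were lower and 1 of these 4 held (20% called, against 9.23% of all genes). NR3C1, the glucocorticoid receptor, stood at 74.1, 77.9 and 80.0 CPM with dexamethasone and 68.6, 60.0 and 62.6 CPM with prednisolone, and its difference of 0.28 was not called (adjusted p = 0.0657). The mineralocorticoid receptor NR3C2 was at most 1.28 CPM in the 6 libraries and was not called. HSD11B1, the reductase that turns inactive cortisone into cortisol, was lower with dexamethasone, at 14.9, 13.8 and 16.1 CPM against 36.1, 39.1 and 28.9 CPM with prednisolone. The groups did not overlap. Every dexamethasone library lay below the vehicle range of 31.6 to 58.1 CPM, and 2 of the 3 prednisolone libraries lay within it. The difference of -1.22 (SE 0.23, adjusted p = 0.000425) held with no called series difference, and the 5 libraries fitted alone called it (adjusted p = 9.05e-06), while the fit with group variances did not (0.138). The chaperones HSP90AA1 and HSP90AB1 were higher by 0.43 and 0.23 and the co-chaperone FKBP4 was lower (-0.35). None of the 3 held, and all 3 followed the control series.

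Among genes with a mean of at least 5 CPM in either group and no overlap between them, the largest difference that held was that of TBC1D30, a GTPase-activating protein for Rab proteins. It stood at 22.6, 21.6 and 17.0 CPM with dexamethasone, 4.18, 4.78 and 2.75 CPM with prednisolone and 1.73 to 4.34 CPM in vehicle, so only the dexamethasone libraries left the vehicle range entirely. Its difference was 2.39 (SE 0.26, adjusted p = 3.1e-08). RBMS3, an RNA-binding protein, stood at 48.8, 46.8 and 37.1 CPM with dexamethasone and 15.6, 18.5 and 15.6 CPM with prednisolone against 1.53 to 2.70 CPM in vehicle. Both steroid groups exceeded vehicle without overlap between any of them, and the difference was 1.42 (SE 0.25). USP53, of the ubiquitin-specific protease family, showed the same order, at 84.2, 87.9 and 94.4 CPM, 36.8, 39.2 and 35.9 CPM and 8.97 to 11.5 CPM in vehicle, with a difference of 1.25 (SE 0.11, adjusted p = 1.43e-10). These 3 differences held with no called series difference, and they were also called in the 6 libraries alone and with group variances.

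Smaller levels were behind AMT, a glycine cleavage enzyme, TRIB1, a pseudokinase that directs the transcription factor C/EBPα to degradation, C5orf56 and PITPNM2, a phosphatidylinositol transfer protein, which reached at most 8.65, 19.6, 8.46 and 6.79 CPM. Their differences of 1.46, 1.28, 1.27 and 1.25 held with no called series difference. OIP5-AS1, a long non-coding RNA, stood at 238, 194 and 312 CPM with dexamethasone and 84.2, 108 and 98.0 CPM with prednisolone. Its difference of 1.36 (SE 0.14, adjusted p = 1.41e-08) held without overlap and followed the control series (0.52). Use of strand in counting is not given in the sources used here, so reads of antisense genes and of their partners cannot be told apart. PLEKHA4, a lipid-binding adaptor, was higher by 1.30 and followed the control series too.

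Immediate early genes, the transcription factors and feedback regulators that answer signals within minutes, were more often higher than lower. Of 28 tested, 10 were higher and 1 was lower, against 5.48% and 3.75% of all genes, 6 of the 11 held, and the median difference was 0.37. Dexamethasone was called above both vehicle series in 11 of the 28 (6.53% of all genes) and prednisolone in none (1.67%). Prednisolone was called below both in 1 (0.933%). EGR1, a zinc finger factor downstream of MAP kinases, stood at 56.4, 38.5 and 45.6 CPM with dexamethasone and 15.0, 16.4 and 13.2 CPM with prednisolone. The groups did not overlap, and the vehicle libraries, at 18.7 to 41.1 CPM, lay above every prednisolone library and overlapped dexamethasone. The difference of 1.65 (SE 0.23, adjusted p = 4.21e-06) held and ran against the control series (-0.79). IER2 was higher by 0.74, IER5 by 0.45, KLF6 by 0.49 and the phosphatase DUSP6 by 0.42. These differences held with no called series difference, although DUSP6 in Dexamethasone-3 lay inside the prednisolone range. JUN, the core of the AP-1 factor, was higher by 0.53, held and ran against the control series. MYC, a growth-promoting transcription factor, was lower (-0.91), at 59.1, 49.9 and 9.65 CPM with dexamethasone and 84.6, 55.2 and 80.8 CPM with prednisolone. Its groups overlapped, Dexamethasone-3 was far below the other 5 libraries, and the difference did not hold (-0.44, adjusted p = 0.243).

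Of 28 NF-κB target genes, 4 were higher (14.3%, against 5.48% of all genes) and none lower (3.75%), 2 of the 4 held, and the median difference was 0.16. TNF, the cytokine, stood at 23.3, 29.8 and 24.3 CPM with dexamethasone and 7.87, 8.21 and 5.51 CPM with prednisolone. All dexamethasone libraries exceeded the vehicle range of 4.38 to 10.2 CPM, and all prednisolone libraries lay within it. Its difference was 1.85 (SE 0.22, adjusted p = 1.05e-07), which held with no called series difference. The files list TNF on several rows, which were summed, so its level is uncertain. TNFAIP3, a brake on NF-κB, was higher by 0.53 without holding (0.45, adjusted p = 0.0542) and ran against the control series. CCL3, a chemokine at a level of at most 3.12 CPM, was higher by 1.61 without holding.

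Genes of cholesterol synthesis and uptake were higher with dexamethasone in 15 of 23 tested (65.2%, against 5.48% of all genes) and lower in none, with 8 of the 15 held and a median difference of 0.48. Of those 8, 5 followed the control series. Dexamethasone was called above both vehicle series in 10 of the 23 genes (6.53% of all genes) and prednisolone in 1 (1.67%). SQLE, squalene epoxidase, stood at 160.2, 163 and 186 CPM with dexamethasone and 91.3, 94.6 and 117 CPM with prednisolone, and differed by 0.75 (SE 0.10, adjusted p = 9.94e-07). No library of one group reached the other, and Veh-2 exceeded Veh-1 by 0.31. HMGCS1 and FDPS, enzymes of the pathway, differed by 0.58 and 0.53, held and followed the series as SQLE did. MSMO1, a sterol oxidase, stood at 63.0, 62.0 and 46.4 CPM with dexamethasone, 38.2, 35.3 and 37.0 CPM with prednisolone and 26.9 to 32.7 CPM in vehicle. It differed by 0.63 (SE 0.12) without overlap, held and showed no called series difference. FDFT1, squalene synthase, at 0.40, and INSIG1, the sterol-sensing retention protein, at 0.44, held with no called series difference too.

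Dexamethasone-3 departed from the other dexamethasone libraries in different directions within this list. LSS, lanosterol synthase, stood at 12.9, 17.3 and 31.9 CPM with dexamethasone and 9.66, 9.98 and 11.4 CPM with prednisolone, and its difference of 1.01 did not hold (0.55, adjusted p = 0.128). INSIG1 stood at 76.9, 77.3 and 50.7 CPM and 43.7, 51.2 and 55.4 CPM. Dexamethasone-3 was the highest library of the 6 for LSS, while for INSIG1 it was the lowest dexamethasone library and lay within the prednisolone range. Among fatty acid and LXR genes, 3 of 18 were higher (16.7%, against 5.48% of all genes) and all 3 held: PDK4, described above, PLIN2, a lipid droplet protein, at 0.82, and FADS1, a desaturase, at 0.45, the latter pair following the control series.

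**Figure D4:**
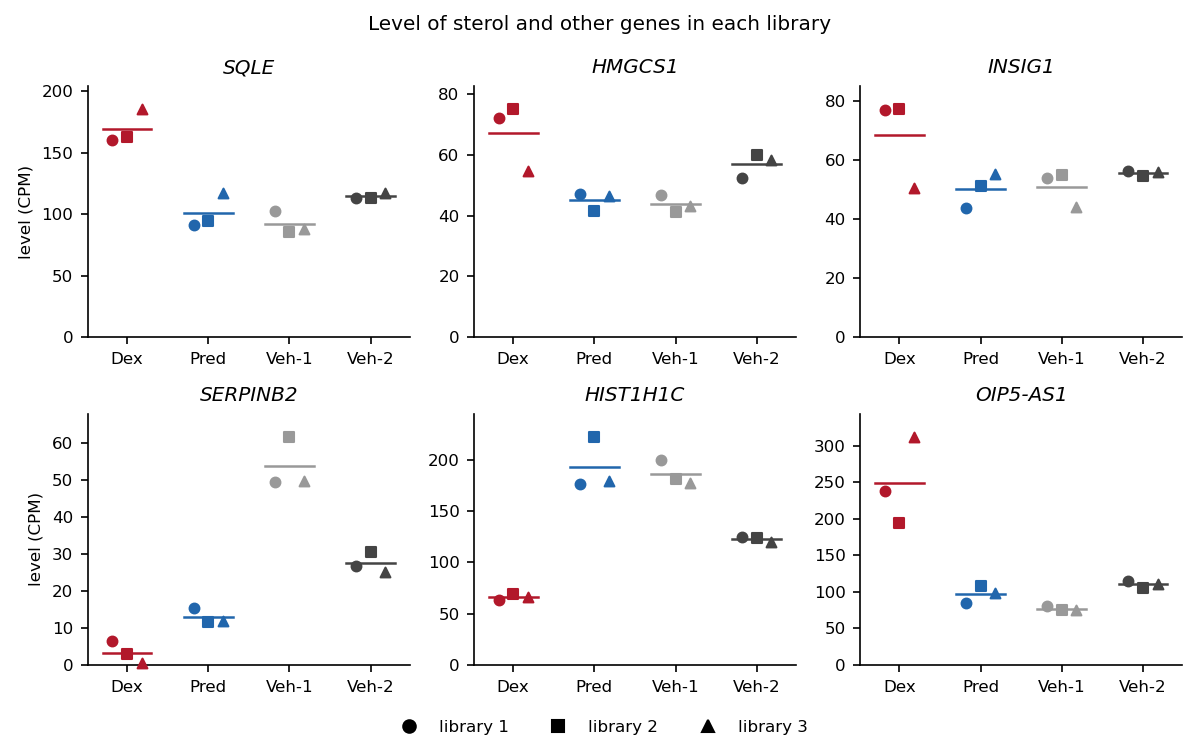
Level in CPM (linear axis from 0) of 6 genes in each dexamethasone, prednisolone, Veh-1 and Veh-2 library, with group means as lines. SQLE, HMGCS1 and OIP5-AS1 are higher and SERPINB2 and HIST1H1C lower in every dexamethasone than in every prednisolone library, with Veh-2 on the same side of Veh-1, and INSIG1 in Dexamethasone-3 lies within the prednisolone range.

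Genes of the integrated stress response and genes linked to p53 were partly higher with dexamethasone. Cytosolic heat shock proteins gave 1 higher call among 15 (6.67%, against 5.48% of all genes) and NRF2 target genes 1 lower call among 22 (4.55%, against 3.75%). Neither held, and the former followed the control series while the latter ran against it. Of 25 genes of the integrated stress response tested, 6 were higher (24%, against 5.48% of all genes), none was lower, 5 held and 4 followed the control series. ATF4, its central transcription factor, stood at 308, 317 and 514 CPM with dexamethasone and 186, 206 and 205 CPM with prednisolone. Dexamethasone was higher in every library, and the difference of 0.93 (SE 0.14, adjusted p = 1.97e-05) held and followed the series (0.84), as did those of ASNS, asparagine synthetase (0.99), and PHGDH, of serine synthesis (0.52). STC2, a secreted glycoprotein, held with no called series difference, at a level of at most 2.56 CPM. The factor DDIT3 was not called (0.20). Of 18 genes linked to p53, 3 were higher (16.7%, against 5.48% of all genes), and CDKN1A, the cell cycle inhibitor, and SESN1, an inhibitor of mTORC1 signalling, held at 0.78 (SE 0.12) and 0.66 (SE 0.12) with no called series difference.

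Single members of other lists were higher and held. MT2A was the only call among 11 genes of metallothioneins and zinc export (9.09%), and TIMP3 among 14 matrix metalloproteases and inhibitors (7.14%). NDRG1 was the only call among 25 genes of hypoxia and glycolysis (4%). Each of these shares is 1 gene, against 9.23% of all genes called in either direction and 5.48% called higher. MT2A, a metal-binding metallothionein, stood at 358, 331 and 264 CPM with dexamethasone and 186, 175 and 179.8 CPM with prednisolone, a difference of 0.82 (SE 0.13) that followed the control series. TIMP3, an inhibitor of matrix metalloproteases, stood at 309, 331 and 229 CPM and 182, 168 and 168 CPM, and its difference of 0.75 (SE 0.10) followed the series too. Neither gene's groups overlapped, and in both Dexamethasone-3 was the lowest dexamethasone library. NDRG1, a hypoxia-responsive gene, was higher by 0.69 (SE 0.11) with no called series difference.

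By the same criteria, the largest lower difference that held was that of SERPINB2, an inhibitor of plasminogen activators. It stood at 6.41, 3.02 and 0.603 CPM with dexamethasone, 15.4, 11.6 and 11.7 CPM with prednisolone and 25.01 to 61.6 CPM in vehicle, so all 6 steroid libraries lay below vehicle. The difference of -2.02 (SE 0.30, adjusted p = 9.98e-06) held at -1.51 and followed the control series (-0.97). Histone genes gave 5 lower calls among 42 tested and none higher, and all 5 held and followed the control series. How much of these differences goes with the series was not tested. Dexamethasone was called below both vehicle series in 1 of the 42 (5.33% of all genes), HIST1H1C, which differed from Veh-2 by -0.89. The lower calls made up 11.9% of the list, against 3.75% of all genes, and 1.17% of all genes were lower and held. With group variances HIST1H1C was the member called. HIST1H1C, a linker histone, stood at 63.3, 68.9 and 66.0 CPM with dexamethasone and 176, 222 and 179 CPM with prednisolone, with a difference of -1.54 (SE 0.12, adjusted p = 4.51e-12). The groups did not overlap, the vehicle libraries at 119 to 199.8 CPM all lay above dexamethasone, and Veh-2 minus Veh-1 was -0.60. HIST1H1D, HIST1H1E, HIST1H2BC and HIST1H2AB were lower as well, at -1.19, -1.04, -1.11 and -1.52. The groups overlapped for HIST1H2AB, at 1.025, 0.0944 and 2.41 CPM with dexamethasone and 2.19, 5.61 and 2.40 CPM with prednisolone. Some histone genes, such as HIST2H2AA3 and HIST2H2AA4, are near-identical copies whose reads counting could split.

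The ion channel subunits CACNA2D3 and KCNA3 were lower (-1.18 and -1.14), held and followed the control series, as did C4orf36 (-1.09). NT5M, a mitochondrial nucleotidase (-1.94), DNAJC17, a J-domain co-chaperone (-1.11), and the antisense RNAs HIF1A-AS1 (-1.23) and ZRANB2-AS1 (-1.20) held with no called series difference. S100A9, a calcium-binding protein of myeloid cells, stood at 22.2, 26.3 and 38.1 CPM with dexamethasone, 47.3, 54.2 and 44.7 CPM with prednisolone and 70.2 to 101 CPM in vehicle. The 3 ranges did not overlap, and the difference of -0.75 (SE 0.14) held and ran against the control series.

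Lists of nucleotide synthesis, ribosome assembly and replication gave 4, 7 and 3 calls, and none of them was called with group variances. Of 16 purine synthesis genes, 4 were lower (25%, against 3.75% of all genes) and none higher, with a median difference of -0.21. ADSS, which makes the precursor of AMP, held (-0.44, SE 0.09) with no called series difference, while IMPDH2, PAICS and HPRT1 at -0.56, -0.51 and -0.44 did not hold. Among 22 genes of ribosome biogenesis, 6 were lower and 1 higher (31.8% called, against 9.23% of all genes), and GNL3, NOP16 and UTP20, nucleolar proteins, held at -0.47, -0.40 and -0.34 with no called series difference. Of 25 replication genes, 3 were called, all lower (12%, against 3.75% of all genes). MCM6, of the replicative helicase, and CDC6, of its loading, held at -0.39 and -0.31. Genes of G2 and mitosis gave 2 higher and 4 lower calls among 25 (24%, against 9.23% of all genes). Their median difference was -0.05, and 2 of the 6 calls held. BIRC5, survivin, was among the lower ones (-0.47, SE 0.08) and held with no called series difference. Cytosolic ribosomal proteins were more often higher than lower, with 21 of 84 higher and 1 lower (26.2% called, against 9.23% of all genes). Of these 22 calls, 17 followed the control series and 8 held, all 8 among those that followed. RPS4X showed the largest difference among those called, 0.67 (SE 0.11), with levels of 1584, 1586 and 2553 CPM with dexamethasone and 1143, 1295 and 1153 CPM with prednisolone. These genes have many processed pseudogenes, so their counts are uncertain.

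**Figure D5:**
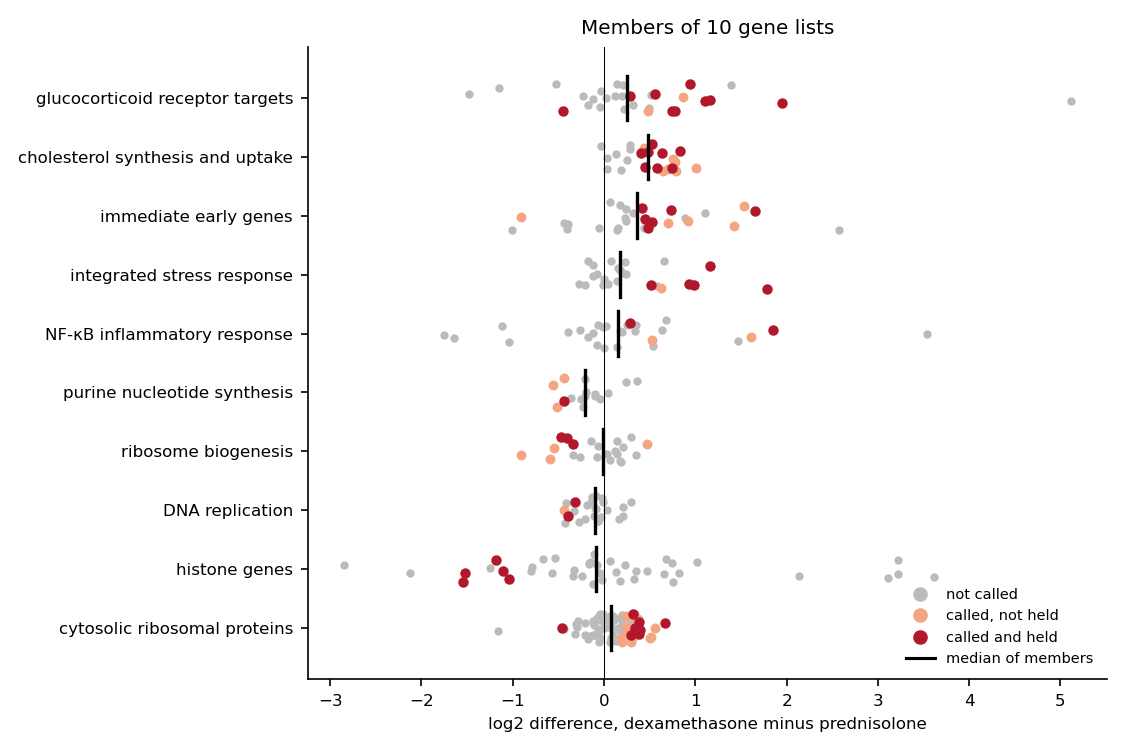
Log2 difference of dexamethasone minus prednisolone for each tested member of 10 gene lists, one point per gene, with the median of the members as a black bar. Cholesterol genes range from -0.03 to 1.01 with a median of 0.48, receptor targets are spread with a median of 0.25, and the called histone genes all lie below 0.

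Several large differences missed the threshold without Dexamethasone-3, some with little change in size. CTGF, a matricellular protein, stood at 5.64, 8.78 and 9.35 CPM with dexamethasone and 3.09, 1.98 and 3.11 CPM with prednisolone, and its difference was 1.54 with Dexamethasone-3 and 1.40 without it (adjusted p = 0.081). HSD3B7, an enzyme of bile acid synthesis (1.42 with and 1.29 without), PADI2, a peptidylarginine deiminase (1.31 and 0.96), and MX1, an interferon-induced GTPase (1.26 and 1.28), were higher without holding, and MX1 followed the control series. THOC6, of the mRNA export complex, stood at 9.48, 6.33 and 0.704 CPM with dexamethasone against 14.2, 11.5 and 14.7 CPM with prednisolone, and its difference of -1.32 went to -0.79 (adjusted p = 0.12). PRDM6, of the PRDM family of transcription regulators (-1.38 with and -0.90 without), the histone pseudogene H3F3AP4 (-1.48 and -1.10) and LOC407835 (-1.28 and -0.92) were lower without holding, and Dexamethasone-3 was the lowest library for all 4.

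Group means of the held genes were also placed against the range of the 6 vehicle libraries, which spans both control series. Of the 267 genes that were higher and held, dexamethasone lay above the range and prednisolone within it in 101 (37.8%, against 11.8% of all genes tested), and both lay above in 63 (23.6%, against 9.93%). Dexamethasone lay within and prednisolone below in 46 (17.2%, against 5.3%), both lay within in 34 (12.7%, against 46.4%), and dexamethasone lay above and prednisolone below in 23 (8.61%, against 0.831%). Of the 183 that were lower and held, dexamethasone lay below and prednisolone within in 91 (49.7%, against 11.4%), and both lay below in 30 (16.4%, against 8.07%). Both lay within in 25 (13.7%, against 46.4%), dexamethasone lay below and prednisolone above in 23 (12.6%, against 0.799%), and dexamethasone lay within and prednisolone above in 14 (7.65%, against 5.41%). The genes were chosen for their difference between the steroids, so these shares are a description.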

How the data were processed

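RNA of THP-1 cells was sequenced as 48 libraries in 16 groups of 3 with the QuantSeq kit, which reads transcripts at their end. Each library's deposited file lists counts, as whole numbers, by gene symbol. The reads were aligned to hg19 (GRCh37), and Bowtie2 and bedtools were used, per the submitters' processing notes; the sources used here do not give versions, the order of steps or whether strand was used. Total counts were 5.95 M to 11.5 M (1000000 counts) per library, which limits the precision for genes of a few CPM.

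Of 25737 rows per file, 1561 carried one of 286 repeated symbols (1.36% of counts) and were summed, leaving 24462 symbols. Counts were tested with edgeR 4.0.16 (R 4.3.3; TMM scaling, filterByExpr, glmQLFit and glmQLFTest) over all 48 libraries and 16 groups, with Benjamini-Hochberg adjustment over the 15642 genes kept. CPM are counts per 1000000 of the TMM-scaled library. The steps were tested on simulated data in which all groups shared the same spread, so the wider spread of dexamethasone was not covered. Alternatives used limma 3.58.1, DESeq2 1.42.0, other libraries or filters, and a replicate block. Replicate numbers were checked for pairing: deviations of same-numbered dexamethasone and prednisolone libraries correlated at 0.066, -0.098 and -0.064, so the numbers were not taken as pairs.

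Named genes were, among called genes with a log2 difference of at least 1, a mean of at least 5 CPM in either group and no overlap, the 12 largest per direction that held and the 4 largest that did not, then from each list up to 5 called and 3 uncalled members, and 9 receptor genes and targets whatever their values. Not all of them are printed. The comparison and the lists were chosen with earlier results of these data known.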

Additional observations from a re-analysis of the deposited data

How the results depend on the processing

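Counts are given in the order called genes, held genes, called genes that follow the control series, called named genes, and called list members, which were 1444, 450, 447, 124 and 169. With limma's group variances they were 163, 155, 76, 29 and 32. The 6 libraries fitted alone gave 6, 6, 1, 6 and 3, and with a replicate block 0 in each, with 1168 genes at an unadjusted p under 0.05. The 18 libraries of the 2 steroids and the controls gave 797 held genes. Leaving out 1 library at a time gave 638 to 2346, 97 to 638, 222 to 527, 57 to 114 and 89 to 237. Without Dexamethasone-2 there were 2346 calls, and without Dexamethasone-3, Prednisolone-1 and Prednisolone-3 there were 638, 733 and 685. The 638 held genes are those without Dexamethasone-3, where held and called are the same by definition. Held genes were 164 without Dexamethasone-1, 97 without Dexamethasone-2, 295 without Prednisolone-1 and 223 without Prednisolone-3. Without Dexamethasone-1 or Dexamethasone-2, this second refit leaves 1 dexamethasone library, which is assumed to vary like the other groups. The cause was not tested.

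Fits without Dexamethasone-3 chosen after seeing the data gave 73 called named genes in the 5 libraries alone, 70 with group variances and 68 in the 5 libraries with a replicate block. Their counts of all called genes were 1112, 1006 and 964, within 1.5 times of 1444. With a replicate block over 48 libraries the counts were 1440, 451, 454, 119 and 168, and the numbers did not pair the libraries. No named gene changed sign in a called value under any alternative run. Genes of a few CPM are limited by depth.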

Other observations

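Several other gene groups gave calls between dexamethasone and prednisolone of which few or none held. Shares called are to be read against the 9.23% called over all genes. Of 30 interferon-stimulated genes, 4 were higher and 1 was lower (16.7% called), none held, and the median difference was 0.02. Those called included IFI6 (0.67) and OAS3 (0.59), antiviral genes that followed the control series. Aminoacyl-tRNA synthetases, which charge transfer RNAs, gave 5 higher and 1 lower among 20 (30% called). AARS (0.49) and CARS (0.49) did not hold, and LARS, the lower one (-0.30), was the member that held. Among 20 genes of folding in the endoplasmic reticulum, 3 were called (15%). The chaperone CALR (-0.35, SE 0.08) and the disulfide isomerase PDIA4 (-0.76, SE 0.16) were lower and held, and PDIA4 followed the control series.

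Of 43 proteasome subunits, 4 were higher and 2 were lower (14% called), and none held. Among 24 chemoattractant and cytokine receptors, 4 were higher (16.7%, against 5.48% of all genes), and CXCR4 alone held. IL10RA, the interleukin-10 receptor (0.68), and TNFRSF1B, a TNF receptor (0.50), did not. CCNB1, the cyclin that drives entry into mitosis, was lower (-0.25) and held with no called series difference, while TOP2A, a topoisomerase of dividing cells, was higher (0.34) without holding.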
